A study of Homo sapiens with 14 samples.

Results

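In HEK293T cells, 10 immediate early genes of the EGR, IER, NR4A and GADD45 families were measured, namely EGR1, EGR2, EGR3, NR4A1, NR4A2, IER2, IER3, IER5, IER5L and GADD45B. They were picked out by gene symbol, from a list drawn up with earlier results of these data known, and they are 10 of the 57820 annotated genes in the deposited tables and 10 of 20345 protein-coding genes. HEK293T is a line derived from human embryonic kidney that carries the SV40 large T antigen. The RNA was polyadenylated RNA read by acrylonitrile-mediated sequencing, in which the uridine analogue s4U enters newly made RNA and its reaction with acrylonitrile is read as a T-to-C mismatch, so that a fragment with a mismatch is called labelled.

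The study had 14 libraries in 7 groups of 2, all from the same line. In the PDP experiment, 6 libraries came from cells given 0, 4 or 8 µM PDP, a pyridostatin analogue that stabilizes G-quadruplexes, for 20 min and then 500 µM s4U for 1 h, and all 6 were treated with acrylonitrile, the 0 µM libraries included. In the conversion experiment, 8 libraries came from cells grown for 24 h without or with s4U, and their RNA was left as it was or treated with acrylonitrile, which gives the groups untreated, acrylonitrile, s4U, and s4U with acrylonitrile. The s4U group was grown in 50 µM. For s4U with acrylonitrile the treatment label says 500 µM and the protocol 50 µM, so any comparison that sets this group against another may also be one of dose. Nothing in the labels says that replicates came from separate cultures, so a p-value here reflects only how far the libraries of a group differ, which may be technical.

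Immediate early genes are transcribed within minutes of a signal without new protein synthesis, through factors such as SRF, its ELK partners and CREB that wait at their promoters, and their mRNAs are usually short-lived. EGR1, EGR2 and EGR3 are zinc finger transcription factors, NR4A1 and NR4A2 are orphan nuclear receptors, GADD45B is a stress sensor that acts on the p38 and JNK kinase pathway, and the IER genes were named for their early induction. IER5 is a partner of the heat shock factor HSF1, IER5L is its relative, IER2 is a nuclear protein, and IER3 acts in cell survival.

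The 0 µM libraries held 9770956 and 10564894 fragments and the 4 PDP-treated libraries 18373693 to 22363992, and 82.6 to 83.0% of fragments lay in genes at 0 µM against 86.5 to 89.7% after PDP. The conversion libraries held 6074118 to 17228999. All 8 markers of the line were above 1 FPM (fragments per 1000000 fragments of the library) in every library, VIM at 145 to 591. In the PDP libraries the endothelial and hepatocyte markers stayed under 1 FPM, and CD3E was at 0 in all 14. In the conversion libraries ALB, a hepatocyte marker, read 4.06 to 85.6 FPM and was highest in the acrylonitrile libraries, and its part in any result was not tested.

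Regulatory sequence is shown first because the match by symbol did not use it. RefSeq promoters (GRCh38.p14, 250 bases before to 50 after the start site) were given for 7 of the 10 genes, as 10 promoters. A CArG box, the SRF-binding motif, was found in 2 of these genes, EGR1 and EGR2, and in 1.29% of all 35116 promoters. EGR1 held 2 and EGR2 held 1, all within 105 bases before the start site, with the box in capitals.
EGR1, chr5:138465364-138465393, plus strand: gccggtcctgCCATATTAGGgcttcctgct
EGR1, chr5:138465386-138465415, plus strand: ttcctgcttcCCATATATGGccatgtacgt
EGR2, chr10:62816418-62816447, minus strand: gttcctcagtCCATATATGGgcagcgacgt

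GADD45B held the sequence bound by the EGR proteins themselves, searched as GCGGGGGCG or GCGTGGGCG on both strands and found in 5.77% of promoters. The match lay on the strand opposite to the gene, so the capitals below are its complement.
GADD45B, chr19:2475958-2475986, plus strand: ccacgtggggCGCCCCCGCacgccgctcc

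The cyclic AMP response element TGACGTCA (1.85% of promoters) and the NR4A response element AAAGGTCA (1.22%) were in none of the 10 promoters, which says only that these letters are not in these windows.

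The pentamer ATTTA of AU-rich elements, which bind mRNA decay factors, was searched on the mRNA strand of the 3′ untranslated regions of the canonical transcripts (GENCODE, GRCh37). It was in 8 of the 10 genes, against 68.2% of 18514 genes, and absent from IER2 and GADD45B. The longer TTATTTATT, which contains ATTTA, was found 3 times in IER5 and in no other of the 10, against 8.54% of all genes. The IER5 cluster holds 4 overlapping pentamers, and it is shown beside single pentamers of IER5L and EGR1 and a pair in IER3, with the pentamers in capitals.
IER5, chr1:181061584-181061613, plus strand: ttcctttATTTATTTATTTATTTAattata
IER5L, chr9:131938884-131938913, minus strand: agaaaaagcgcctATTTAagtatgctttgt
EGR1, chr5:137804752-137804781, plus strand: actgaaaatgtaaATTTAtaaatatattca
IER3, chr6:30711425-30711454, minus strand: taattaatATTTAtatgtATTTAtgtacgt

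On GRCh37 the deposited gene spans are chr5:137801179-137805004 for EGR1, chr9:131937835-131940540 for IER5L, chr19:2476120-2478257 for GADD45B, chr19:13261229-13265722 for IER2, chr12:52416616-52453291 for NR4A1, chr2:157180944-157198860 for NR4A2 and chr1:181057638-181059977 for IER5. The IER5 cluster lies beyond the end of this last span, which is 2340 bases long against 4201 for the canonical transcript, so its fragments were not counted for IER5. It falls in the 4000 bases downstream, which overlap RP11-309G3.3 on the same strand and held 0 or 1 fragments in each PDP library. Whether the IER5 mRNA of these cells carries the cluster was not tested. By putative G-quadruplex motifs, 4 runs of at least 3 G with loops of 1 to 7 bases on either strand, the genes also differ. The IER5 span held 0 such motifs. GADD45B held 2.34 per kb (98.7th percentile of protein-coding genes), EGR3 2.13, IER5L 1.85 (97.5th percentile) and EGR1 1.05, against a median of 0.136 per kb. IER5L and IER2 transcripts are also GC-rich, at 65.0 and 63.0% GC against a median of 49.1%.

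Levels were compared per kilobase of transcript at 0 µM PDP. IER5 was highest at 41.5 ± 0.555 FPM per kb (SD, n = 2), and on its deposited span it read 74.6 ± 0.996. IER2 followed at 32.2 ± 0.131. IER5L (11.7 ± 0.304), GADD45B (10.6 ± 1.95) and NR4A1 (10.4 ± 0.0141) followed, with GADD45B overlapping the other two and IER5L above NR4A1 in both libraries. EGR1 read 1.13 ± 0.196, NR4A2 0.752 ± 0.0616, IER3 0.487 ± 0.364, EGR3 0.0978 ± 0.010 and EGR2 0.0794 ± 0.112, and the last 3 were too low for the PDP tests of labelled RNA, with 0 to 6 labelled fragments in a library.

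The labelled share after 1 h of s4U asks how quickly each mRNA turns over. It was turned into a half-life by the first-order formula of the study's methods. The formula takes the RNA to be at steady state and every new fragment to carry a mismatch. Of 7 members with enough fragments, 6 had half-lives under 2.04 h, the first quartile of 12811 genes, whose median was 3.17 h. IER5L was the shortest at 0.639 ± 0.00961 h (SD, n = 2), with 65.8 and 66.6% of its fragments labelled. GADD45B followed at 0.665 ± 0.0481 h, NR4A2 at 0.680 ± 0.130 h, EGR1 at 0.796 ± 0.352 h and IER5 at 0.818 ± 0.0198 h. Both IER5 libraries lay above both libraries of IER5L, GADD45B and NR4A2, while the libraries of the other pairs among these 5 overlapped. IER2 came next at 1.05 ± 0.148 h.

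NR4A1 stood apart from the rest, with 25 and 21.6% of its fragments labelled and a half-life of 2.63 ± 0.309 h, at the 38.4th percentile of all genes. With the mismatch share of the acrylonitrile libraries subtracted this became 4.38 h (its own share) or 3.77 h (the share over all genes). Its 3′ untranslated region has 3 ATTTA pentamers and that of GADD45B has 0, and a relation between pentamers and half-life was not tested. EGR1 rests on 39 and 33 fragments, of which 71.8% (Wilson 95% interval 56.2 to 83.5) and 48.5% were labelled, and intervals cover counting error only. Of the genes that share the early response, 27 of 31 other immediate early genes were also under the first quartile, with a median of 0.747 h. The upstream ERK, SRF and CREB pathway had a median of 3.53 h, with 4 of 23 under the quartile, and the family relatives and cofactors had a median of 2.31 h, with 4 of 10.

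**Figure D1:**
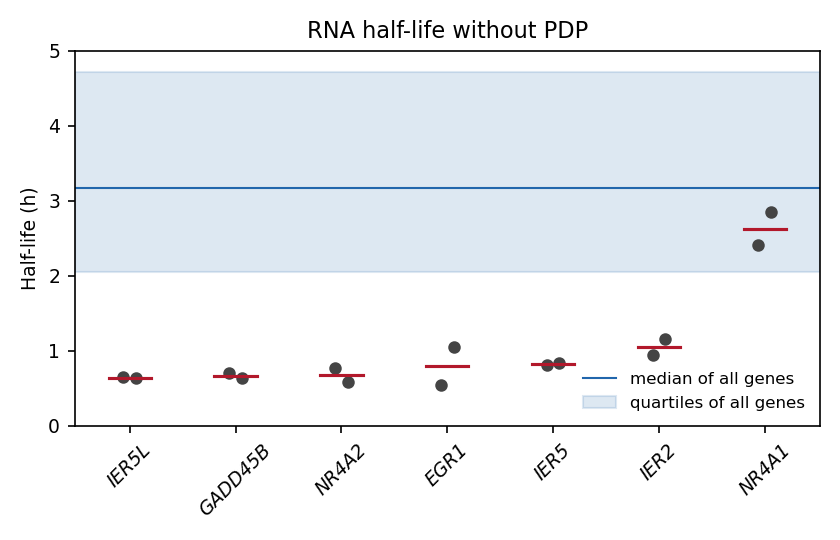
Half-life in hours without PDP for the 7 members with enough fragments, each point a replicate library and each red line the mean of 2, with the median and quartiles of 12811 genes in blue. NR4A1 lies inside the blue band at 2.63 h and the other 6 lie below it, from 0.639 to 1.05 h.

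PDP at 8 µM changed newly made RNA of these genes in opposite directions. IER5 and IER5L fell, to levels 2.48- and 2.36-fold lower than without PDP, and EGR1 rose 2.32-fold. NR4A1, NR4A2, IER2 and GADD45B did not pass the test. That is 3 of 7 tested members, 1 higher and 2 lower, against 37.7% of 14236 tested genes called in either direction (10.4% higher, 27.3% lower).

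IER5 had 102 and 97.7 labelled FPM at 0 µM, 43.6 and 44.7 at 4 µM, and 38.9 and 41.8 at 8 µM. All treated libraries were below both controls, and the doses did not overlap. The log2 fold change was -1.18 ± 0.07 (SE) at 4 µM, with an edgeR quasi-likelihood adjusted p of 2.4e-41, and -1.31 ± 0.07 at 8 µM, with an adjusted p of 7.0e-48.

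IER5L, the relative of IER5, had 20.5 and 21.5 labelled FPM at 0 µM, 8.97 and 10.3 at 4 µM, and 9.03 and 8.71 at 8 µM. The treated libraries again lay below both controls, and the 2 doses overlapped. The changes were -1.12 ± 0.12 (adjusted p = 1.7e-16) and -1.24 ± 0.12 (adjusted p = 3.1e-19). With a GC content term the 8 µM change of IER5L was -0.63 and that of IER5 -1.33, both still past the threshold. IER5 and IER5L lay at the 0.92nd and 1.31st percentiles of all tested genes.

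EGR1 went the other way. It had 2.87 and 1.51 labelled FPM at 0 µM, 2.57 and 2.87 at 4 µM, and 5.14 and 4.90 at 8 µM, from 28 and 16, 57 and 64, and 115 and 90 labelled fragments. The 4 µM libraries overlapped the controls and the 8 µM libraries were above all others. The log2 fold change was 0.33 ± 0.27 at 4 µM (adjusted p = 0.38) and 1.21 ± 0.24 at 8 µM (adjusted p = 7.4e-06), and 8 µM exceeded 4 µM by 0.89 ± 0.19 (adjusted p = 0.00061). EGR1 was the 1 of 7 members called between the doses, against 0.738% of all genes called higher, and the comparisons with 0 µM share the same controls. Without the second 0 µM library the 4 µM value was -0.08 (adjusted p = 0.91).

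GADD45B had 7.98 and 10.98 labelled FPM at 0 µM, 12.26 and 14.02 at 4 µM, and 11.94 and 11.97 at 8 µM, so every treated library was above the controls. It rose at 4 µM by 0.46 ± 0.14 (adjusted p = 0.0044) and its change at 8 µM was 0.33 ± 0.14 (adjusted p = 0.051). Without the first 0 µM library the 4 µM change was 0.26 (adjusted p = 0.31), and without the second 4 µM library it was 0.36 (adjusted p = 0.070). Without the second 0 µM library the 8 µM change was 0.58 (adjusted p = 0.013), and with TMM normalization it was 0.48 (adjusted p = 0.0044).

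IER2 had 35.2 and 30.8 labelled FPM at 0 µM, 27.4 and 26.9 at 4 µM, and 31.5 and 29.2 at 8 µM. It fell at 4 µM by 0.28 ± 0.09 on the log2 scale (adjusted p = 0.010), a call lost without the first 0 µM library (-0.18, adjusted p = 0.32) and with TMM (-0.23, adjusted p = 0.051) or DESeq2 (-0.23, adjusted p = 0.16), and turned to 0.11 with a GC term. At 8 µM its change of -0.12 ± 0.09 (adjusted p = 0.32) became 0.03 with TMM and 0.44 with a GC term (adjusted p = 7.7e-05). At 4 µM, then, 4 of 7 members were called, 1 higher and 3 lower, against 29% of all genes (9.24% higher, 19.8% lower), and the count was 2 without the first 0 µM library and 3 with DESeq2.

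The nuclear receptors did not pass the test. NR4A1 had 6.45 and 5.58 labelled FPM at 0 µM, 5.95 and 4.66 at 4 µM, and 4.52 and 4.35 at 8 µM, a change at 8 µM of -0.43 ± 0.19 (adjusted p = 0.061). NR4A2 had 1.64 and 1.70, then 1.49 and 1.88, then 1.74 and 1.96, a change of 0.14 ± 0.31 (adjusted p = 0.76) with a 95% interval of -0.47 to 0.75. In bulk RNA, fewer cells making a transcript and less of it per cell cannot be told apart.

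**Figure D2:**
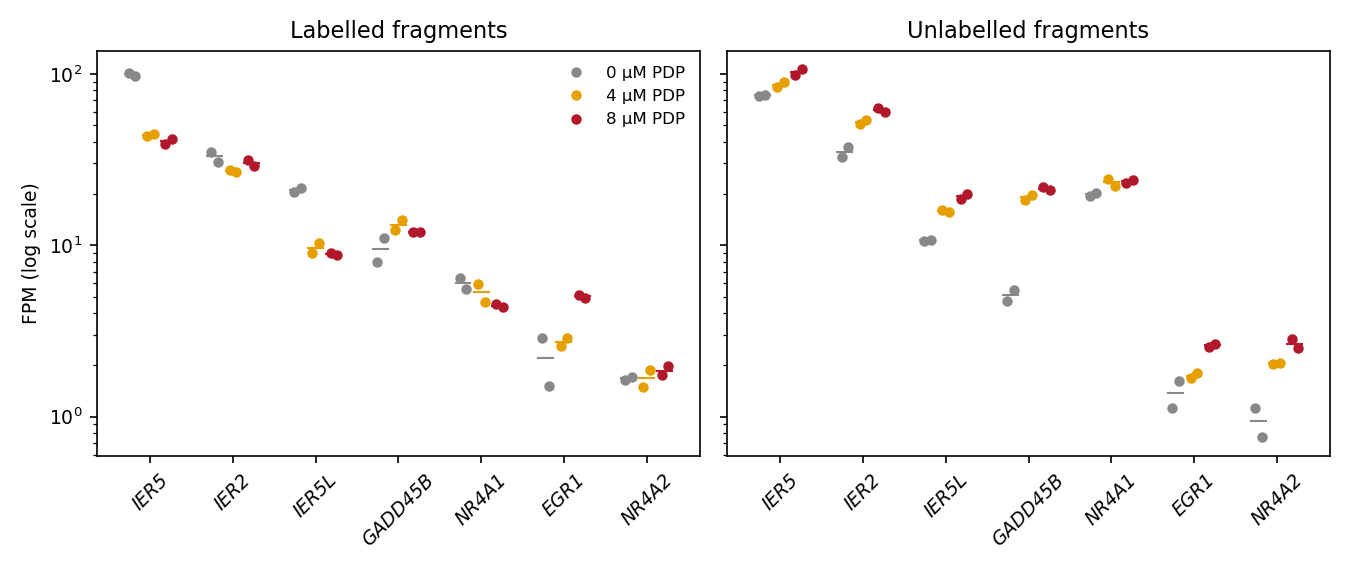
Labelled (left) and unlabelled (right) FPM on a log axis for the 7 tested members, each point a library and each short line the mean of 2, at 0, 4 and 8 µM PDP. Labelled IER5 and IER5L drop at both doses, labelled EGR1 rises at 8 µM, and unlabelled GADD45B rises from between 4.71 and 5.49 FPM to 18.5 or more.

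Genes around the members were read in the same labelled RNA at 8 µM. Of 10 tested gene IDs among the family relatives and cofactors, 0 were higher and 3 lower, close to the 27.3% of all genes called lower, with a median log2 change of -0.37 against -0.11 for all genes. The 3 were RXRA (-0.65 ± 0.08, adjusted p = 3.3e-12), the receptor that pairs with NR4A proteins, NAB2 (-0.90 ± 0.16, adjusted p = 1.8e-07), a corepressor of EGR proteins, and RXRB (-0.58 ± 0.24, adjusted p = 0.045). GADD45A, the sister of GADD45B, was -0.24 ± 0.13 (adjusted p = 0.13).

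The upstream pathway had 2 of 23 genes higher and 13 lower, against 10.4% and 27.3% of all genes, with a median of -0.31. With the FPM minimum raised 10-fold, 545 of 6075 genes were called higher and 3151 lower, with a median of -0.32. The counts and median of the pathway are therefore not read as particular to it. MAP2K2, a kinase that activates ERK, changed by -0.89 ± 0.08, SRF by -0.51 ± 0.09 and the coactivators EP300 and CREBBP by -0.40 ± 0.08 and -0.26 ± 0.07, and all 4 passed the test.

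The other immediate early genes had 7 of 32 higher and 6 lower, against the same shares of all genes, with a median of -0.08. JUN rose by 2.44 ± 0.06 (adjusted p = 1.2e-129) and MCL1, a survival factor, fell by 0.68 ± 0.08 (adjusted p = 3.2e-14), whereas MYC was at 0.09 ± 0.06 (adjusted p = 0.25) and RHOB, a small GTPase, at 0.04 ± 0.07 (adjusted p = 0.73). Among 5784 protein-coding genes with at least 5 labelled FPM, the patterns most like that of EGR1 over the 6 libraries were those of KIF15 (Pearson r = 0.997), PPP1R3F (0.997) and MAGT1 (0.955), a description over 6 points that share libraries and depth.

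Unlabelled RNA, the fragments without a mismatch, went up for most genes when divided by library size. It holds RNA made before the label and any new RNA that carried no mismatch, and the share of each was not tested. The median of 15354 genes shifted by 0.43 on the log2 scale at 8 µM, and that of total RNA by 0.33, while the median of labelled RNA shifted by -0.11. The share of fragments in genes was also higher after PDP, and its part in these shifts was not tested. All 7 members were called higher in unlabelled RNA at 8 µM, against 58.6% of all genes, so values are given relative to the median.

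GADD45B stood out. Its unlabelled level was 4.71 and 5.49 FPM at 0 µM, 18.5 and 19.7 at 4 µM, and 21.8 and 21.0 at 8 µM, with no overlap between controls and treated libraries. The change at 8 µM was 2.06 ± 0.14, or 1.63 above the median (98.8th percentile).

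NR4A2 had 1.13 and 0.757 unlabelled FPM at 0 µM, 2.03 and 2.06 at 4 µM, and 2.82 and 2.50 at 8 µM. Its change was 1.51 ± 0.33, or 1.07 above the median (adjusted p = 1.7e-04), a call lost with DESeq2 (1.08, adjusted p = 0.063). EGR1, IER5L and IER2 were 0.48, 0.41 and 0.38 above the median, and IER5 was 0.02 above it. NR4A1 was 0.19 below the median, so its direction turned under TMM normalization (-0.16).

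With TMM normalization, which sets the median near 0, 4 of 7 members were called higher, and with DESeq2 3. Among all genes the higher share of calls went from 91.5% to 49.9% with TMM, so most calls of a rise rest on the scaling. Unlabelled EGR1 lost its call under TMM (0.51, adjusted p = 0.16) and without the first 0 µM library (0.69, adjusted p = 0.12). NR4A1 lost it without either 0 µM library (0.22 and 0.28) and without the second 8 µM library (0.22). At 4 µM, 5 of 7 members were called, all higher, against 57.8%, and 3 without the second 0 µM library.

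Total RNA at 8 µM combined these parts, with 5 of 7 members called, 4 higher and 1 lower, against 60.5% of all genes (51.8% higher, 8.71% lower). GADD45B had 12.7 and 16.5 FPM at 0 µM and 33.7 and 33.0 at 8 µM, a change of 1.19 ± 0.11 or 0.86 above the median. EGR1 had 3.99 and 3.12 at 0 µM and 7.69 and 7.57 at 8 µM, a change of 1.11 ± 0.19 or 0.78 above the median. Both kept their calls under TMM, unlike NR4A2 (0.79, then 0.49 with adjusted p = 0.065) and IER2 (0.44, then 0.13 with adjusted p = 0.097).

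IER5 fell in total RNA too, from 176 and 173 FPM to 137 and 148 (-0.29 ± 0.06, adjusted p = 4.5e-05), or 0.62 below the median. IER5L was 0.50 below the median and passed the test with TMM (-0.48) and DESeq2 (-0.50) but not with library size (-0.17 ± 0.09, adjusted p = 0.11). NR4A1 was 0.12 with library size and -0.19 with TMM. At 4 µM 4 of 7 were called, 2 in each direction, against 58.3% of all genes (51.4% higher, 6.99% lower), and 2 without the second 0 µM library. Between the doses EGR1 was the 1 member called (0.78 ± 0.15, adjusted p = 0.0055), against 0.233% of all genes called higher, and this call was lost without either 4 µM library (0.71, adjusted p = 0.29, and 0.85, adjusted p = 0.13), while 2 members were called without the first 8 µM library.

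**Figure D3:**
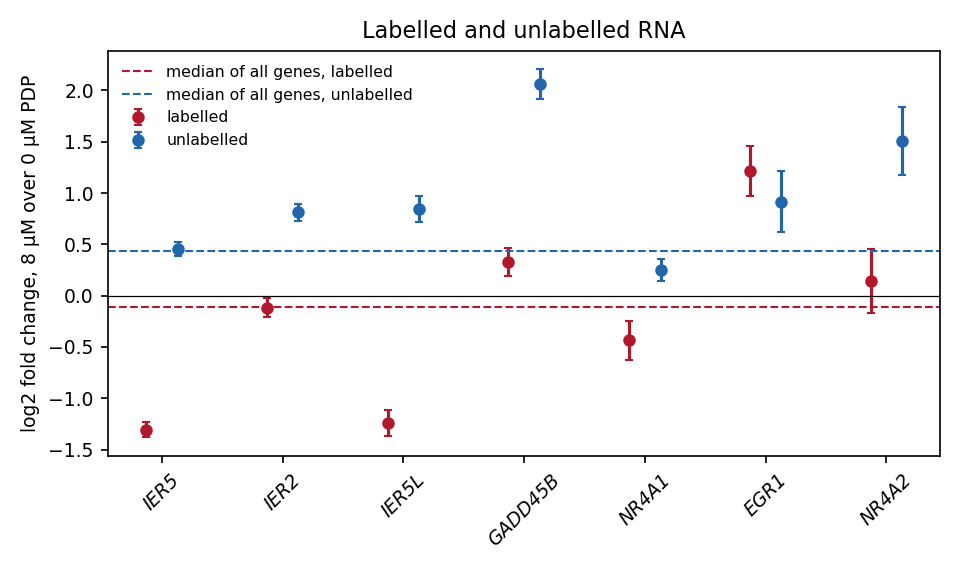
Log2 fold change at 8 µM against 0 µM PDP in labelled (red) and unlabelled (blue) RNA, with bars of 1 SE from edgeR and dashed lines at the median of all genes. IER5 and IER5L fall below the red line while their unlabelled RNA lies at or above the blue one, and EGR1 is the 1 member with a labelled value above its unlabelled value.

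The 2 kinds of fragment come from the same library, so their ratio does not depend on library size. The ratio of labelled to unlabelled RNA fell in 6 of 7 members at 8 µM, against 54.4% of 14005 genes, and the median change of all genes was -0.59. The share called depends on coverage. With the FPM minimum raised 10-fold, 5075 of 6057 genes were called lower, so 6 of 7 is not read as an excess. The labelled share of IER5L went from 65.8 and 66.6% to 32.7 and 30.4%, that of IER5 from 57.8 and 56.5% to 28.3 and 28.2%, and that of GADD45B from 62.9 and 66.7% to 35.4 and 36.3%. Their ratios changed by -2.08 ± 0.16, -1.76 ± 0.08 and -1.74 ± 0.20, at the 0.743rd, 1.61st and 1.79th percentiles. Labelled RNA fell and unlabelled RNA rose in both IER genes (by 0.84 in IER5L and 0.45 in IER5, or 0.41 and 0.02 above the median), whereas in GADD45B the labelled change did not pass the test and unlabelled RNA rose.

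The labelled share of EGR1 was 71.8 and 48.5% without PDP and 66.9 and 64.7% at 8 µM, and its ratio changed by 0.30 ± 0.41 (adjusted p = 0.54), at the 96.0th percentile. Without the second 0 µM library this was -0.39. IER2 (-0.93 ± 0.11), NR4A2 (-1.37 ± 0.48, adjusted p = 0.011) and NR4A1 (-0.68 ± 0.20, adjusted p = 0.0030) were also lower. They lay at the 21.4th, 5.68th and 40.9th percentiles, so NR4A1 was near the median of all genes. With DESeq2 the calls of IER2 (-0.37, adjusted p = 0.10) and NR4A1 (-0.12, adjusted p = 0.86) were lost. NR4A2 lost the call without the second 0 µM library (-1.07, adjusted p = 0.16) or the first 8 µM library (-1.19, adjusted p = 0.062), and NR4A1 without the first 0 µM library (-0.55, adjusted p = 0.081). At 4 µM 5 of 7 were lower, against 46.3% of all genes and 4609 of 6057 with the FPM minimum raised 10-fold.

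Fragments past the annotated end were sparse. In the 4000 bases downstream, IER2 had 0 and 0 fragments at 0 µM, 8 and 2 at 4 µM, and 11 and 12 at 8 µM. With 3 fragments as the limit that a count of 0 over the group allows, the pooled level was 1.52 times that limit at 4 µM and 3.83 times at 8 µM. Counting error of the treated libraries is left out, so these are not lower bounds. Without a filter, edgeR called 0 of 8 member windows at 4 µM, and 2 at 8 µM, 1 in each direction. IER3 was the 1 member whose window passed the filter, and it was lower at both doses (-1.16 ± 0.36 and -1.36 ± 0.37), against 18.2% and 24.3% of 2173 windows called lower. Its window overlaps FLOT1 on the same strand, so these fragments cannot be assigned to IER3. The calls were lost without the second 0 µM library (-0.98 and -1.18) and, at 4 µM, without the first 4 µM library (-0.99).

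The conversion experiment compared total RNA of cells grown for 24 h with and without s4U. After 24 h of s4U, EGR1 and EGR3 RNA fell most, with fitted changes of 24.3- and 25.3-fold, IER5L fell 4.39-fold, and NR4A1, IER2, GADD45B and EGR2 fell less, whereas NR4A2 and IER5 did not pass the test. That is 7 of 10 members lower and 0 higher without acrylonitrile, against 34.7% of 18914 genes lower. The same comparison in acrylonitrile-treated libraries had 9 of 10 lower, against 31.1%, and s4U dose may differ there. It uses other libraries, but all conversion libraries were fitted together, so it is not a separate experiment. Because acrylonitrile was applied after RNA extraction, both comparisons may rest on the same cultures, and whether they do was not tested.

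EGR1 had 32.9 and 33.2 FPM in untreated cells, 0.966 and 1.16 with s4U, 43.6 and 40.7 with acrylonitrile, and 0.856 and 1.84 with both. Every library with s4U was below 2 FPM and every library without it above 30. The log2 fold change was -4.60 ± 0.25 without acrylonitrile (adjusted p = 3.8e-07) and -4.73 ± 0.26 with it (adjusted p = 6.7e-07), and 14 of 14 alternatives kept each call.

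EGR3 had 26 and 31 fragments in untreated cells and 1 and 1 with s4U, then 31 and 22 with acrylonitrile and 1 and 2 with both. The ratio of pooled FPM was 37.4 (exact 95% interval 9.89 to 316) without acrylonitrile and 30.2 (9.79 to 151) with it. EGR2 fell by 1.66 ± 0.55 and by 1.82 ± 0.62 on the log2 scale, from 28 to 9 pooled fragments without acrylonitrile and from 18 to 7 with it. DESeq2 made neither EGR2 call (adjusted p = 0.11 in both). The first was also lost without either untreated library (-1.74 and -1.60) or the first s4U library (-1.40). The second was lost without either untreated library (-1.81 in both), either acrylonitrile library (-1.41 and -2.01) or the first library of both (-1.10).

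IER5L had 13.97 and 14.5 FPM in untreated cells, 2.25 and 2.84 with s4U, 54.4 and 54.5 with acrylonitrile, and 8.25 and 13.3 with both. The changes with s4U were -2.13 ± 0.25 and -2.07 ± 0.22. Its relative IER5 had 79.0 and 78.5 FPM untreated and 68.3 and 48.3 with s4U, a change of -0.07 ± 0.21 (adjusted p = 0.77) that was -0.45 without the first s4U library and 0.23 without the second. With acrylonitrile IER5 went from 199 and 205 to 93.7 and 116 (-0.68 ± 0.21, adjusted p = 0.016), and this call was lost without either acrylonitrile library (-0.67 and -0.58) or without the first s4U with acrylonitrile library (-0.44).

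Smaller changes came in the others. Without and with acrylonitrile, NR4A1 changed by -0.76 ± 0.12 and -0.79 ± 0.12, IER2 by -0.64 ± 0.16 and -1.05 ± 0.16, and GADD45B by -0.77 ± 0.24 and -1.14 ± 0.26, all past the test. With a GC term the IER2 change without acrylonitrile was 0.03, and the GADD45B call was lost (-0.52), as it also was without the first untreated library (-0.67) or, with acrylonitrile, without the first library of both (-0.90). IER3 was -0.98 ± 0.41 (adjusted p = 0.055) and -1.30 ± 0.38 (adjusted p = 0.012), the latter lost without the first acrylonitrile library (-1.15) or either library of both (-1.22 and -1.26). NR4A2 was -0.03 ± 0.30 and -0.12 ± 0.35.

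The count with acrylonitrile was 5 of 10 without the first library of both. In the comparison without acrylonitrile, 6767 of 18914 genes were higher and 6560 lower, with a median of 0.02. Of the other immediate early genes 22 of 33 were lower there and 4 higher, with a median of -1.29, MYC among the lower ones (-2.12 ± 0.13) and JUN not called (-0.28 ± 0.17, adjusted p = 0.16). The upstream pathway had 10 of 23 higher and 8 lower, with a median of 0.20. The 2 libraries with s4U alone differed more than any other replicate pair, with a chi-square of 66.5 per gene against 1.07 to 7.05, a measure that grows with depth.

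**Figure D4:**
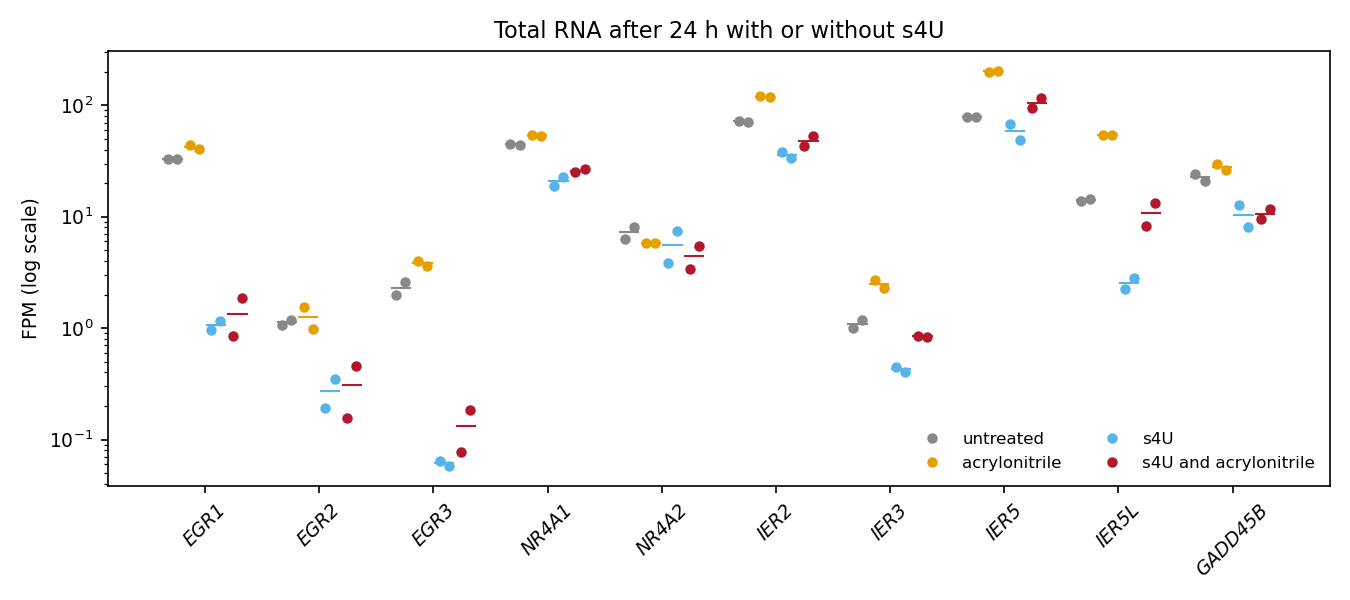
Total FPM on a log axis for the 10 members in the 8 conversion libraries, each point a library and each short line the mean of 2, coloured by treatment. The blue and red points with s4U lie far below the grey and orange points for EGR1 and EGR3, and among them for NR4A2.

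Acrylonitrile was applied to RNA after extraction. The share of fragments in genes was 68.4 to 70.9% in the 4 libraries treated with it and 85.8 to 90.6% in the other 4, and the part of this in the results that follow was not tested. Without s4U, 8 of 10 members read higher with acrylonitrile, against 29.1% of all genes, and with s4U 6 of 10, against 31%. IER5L was highest, at 2.63 ± 0.21 and 2.69 ± 0.26, with IER5 at 2.05 ± 0.21 and 1.45 ± 0.21. IER3 (1.89 ± 0.36 and 1.57 ± 0.44), IER2 (1.43 ± 0.16 and 1.02 ± 0.16), NR4A1 (0.96 ± 0.12 and 0.93 ± 0.12) and EGR1 (1.04 ± 0.18 and 0.92 ± 0.36) followed. EGR3 and GADD45B were called without s4U (1.42 ± 0.32 and 1.01 ± 0.24) and not with it (1.51 ± 0.97 and 0.63 ± 0.26), and the difference between these effects did not pass the test.

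A GC content term took the counts to 5 and 2 members, NR4A1 to -0.03 and -0.21, and IER2 to 0.19 and -0.40, while IER5L (1.19 and 1.06) and IER5 (2.17 and 1.45) stayed past the threshold. Without s4U, EGR3 lost its call without the first untreated library (1.22) and GADD45B without the first acrylonitrile library (0.88). With s4U, EGR1 lost it without any of 7 of the 8 libraries (0.32 to 0.98), IER3 without the second s4U library (1.39), and GADD45B gained one without the first s4U library (1.08). The interaction of s4U and acrylonitrile was called by edgeR in 0 of 10 members, against 1.64% of all genes, with 0 at an unadjusted p under 0.05 and 0 by DESeq2. Without the second s4U library 3 were called, IER5 (-0.90), GADD45B (-0.75) and IER2 (-0.57).

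After 24 h of s4U most RNA of these genes carried the label. In the libraries with both treatments, mismatches were carried by 97.7 and 93.2% of NR4A2 fragments, 92.5 and 91.4% for NR4A1, 93.2 and 89.4% for IER5, 90.6 and 90.3% for IER5L, 91.1 and 87.7% for IER2, and 85.2 and 88.1% for GADD45B. The median of 13786 genes was 91.7%. Without s4U the same acrylonitrile treatment left, among these 6 genes, 4.60% (GADD45B) to 9.91% (NR4A1) of fragments with a mismatch, which is the background of this readout. NR4A1, with the longest half-life of the members, was thus near the median at 24 h and the others were on both sides of it.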

How the data were processed

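Per the study's methods, the authors trimmed paired reads with cutadapt 1.18, collapsed identical read pairs, removed ribosomal reads, aligned to GRCh37 with HISAT2 2.1.0, kept unique pairs and took mismatches of base quality at least 41. The deposited values are fragment counts per gene, with and without T-to-C mismatches and in windows of 4000 bases beside each gene, and deposited RPM values (fragments per 1000000 of the library, FPM), the unit of the levels given here. Whether counting used strand is not stated in these sources.

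Tests used edgeR 4.0.16 (quasi-likelihood) in R 4.3.3, with Benjamini-Hochberg adjustment and a threshold of 0.05. PDP tests covered all genes passing a mean of 1 FPM of total, or 0.5 FPM of labelled, unlabelled or downstream fragments. Conversion tests covered the genes kept by filterByExpr, the count filter of edgeR. All 6 PDP libraries were fitted together on the authors' library totals and all 8 conversion libraries with TMM normalization. Alternatives were DESeq2 1.42.0, limma 3.58.1 on log2 FPM with pseudocounts of 0.01, 0.1 and 1, other filters and scalings, a GC content term, a replicate block and each library left out. Scripts were tested on simulated data. Intervals on shares are Wilson intervals.

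The genes and the comparison lists (family relatives and cofactors, the upstream ERK, SRF and CREB pathway, other immediate early genes) were chosen with earlier results of these data known. All 10 members were named, and of each list the 3 genes with the most labelled RNA at 0 µM and those called at 8 µM, up to 4 in all. Labels gave the groups. Windows upstream of genes were read as values with no test.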

Additional observations from a re-analysis of the deposited data

Results flagged for a closer look

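Fragments in the 4000 bases upstream of EGR1, which enter no comparison above, numbered 1 and 0 at 0 µM PDP, 2 and 6 at 4 µM and 3 and 7 at 8 µM. The pooled level at 8 µM was 0.2455 FPM, above that of the control libraries, and no test was made of it. EGR1 itself had 172 and 139 fragments in the 8 µM libraries.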

How the results depend on the processing

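Counts of called members moved with the processing as follows. In labelled RNA, 8 against 0 µM went from 3 to 5 with limma at each pseudocount and with a GC term, and 8 against 4 µM from 1 to 0 with a 10-fold filter, which tested 5 of 7 members and not EGR1, or DESeq2, which gave no adjusted p for 5 of 7, EGR1 included, and to 2 with a GC term. In total RNA, 8 against 0 µM went from 5 to 3 with the 10-fold filter (5 members tested), and 8 against 4 µM from 1 to 0 with that filter, DESeq2 (no adjusted p for 2) or limma and to 2 with a GC term. In unlabelled RNA, 4 against 0 µM went from 5 higher to 2, 1 in each direction (TMM, DESeq2), and 8 against 0 µM from 7 to 4 (TMM, GC term) or 3 (DESeq2). Downstream windows went from 1 to 0 without a filter at 4 µM, and at 8 µM to 2 without a filter and 0 with DESeq2, and the 10-fold filter left no window. The labelled to unlabelled ratio went to 3 with DESeq2 at both doses, where 2 members had no adjusted p. A GC term took acrylonitrile calls from 8 to 5 without s4U and from 6 to 2 with it. Fewer members tested, or with an adjusted p, account for part of these drops, and for the others the cause was not tested.

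The median half-life of 0.796 h became 0.886 h with either background subtracted, and the median 24 h share of 90.9% became 73.9% at 2 or more mismatches and 83.3% with background subtracted. Leaving out 1 library gave labelled counts of 2 to 4 at 4 µM, 3 to 4 at 8 µM and 1 between doses, total counts of 2 to 4, 5 and 0 to 2, unlabelled counts of 3 to 6 and 5 to 7, downstream counts of 0 to 1 at both doses, ratio counts of 4 to 5 and 5 to 6, acrylonitrile counts of 7 to 8 and 4 to 6, s4U counts of 5 to 7 and 5 to 9, interaction counts of 0 to 3, half-life medians of 0.772 to 0.832 h and 24 h shares of 89.8 to 91.8%.

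Directions that turned in labelled RNA at 4 µM were NR4A1 0.13, NR4A2 -0.11 and IER2 0.11 with a GC term, and with a library left out EGR1 ranged from -0.076 to 0.84 and NR4A2 from -0.17 to 0.17. At 8 µM NR4A1 turned to 0.027 (GC term) and IER2 to 0.034 (TMM), 0.0075 (DESeq2) and 0.44 (GC term). NR4A1 turned at 8 µM in total RNA (-0.19 with TMM, -0.21 with DESeq2) and unlabelled RNA (-0.16 and -0.18), and IER5 in unlabelled RNA (-0.096, GC term). The EGR1 ratio ranged from -0.39 to 1.04 with a library left out. For acrylonitrile, a GC term turned NR4A1 to -0.030 without s4U and -0.21 with it, and with s4U IER2 to -0.40 and GADD45B to -0.15. Library totals turned NR4A2 to -0.029, and with a library left out NR4A2 ranged from -0.067 to 0.69 and EGR2 from -0.16 to 1.44. For s4U without acrylonitrile, NR4A2 turned to 0.020 with DESeq2 size factors and 0.012 with DESeq2, and IER2 to 0.033 with a GC term. With a library left out NR4A2 ranged from -0.46 to 0.29 without acrylonitrile and -0.47 to 0.28 with it, and IER5 from -0.45 to 0.23.

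Among all genes, TMM took the calls at 8 µM from 8012 higher and 1347 lower to 4143 and 4178 in total RNA, from 9001 and 834 to 4053 and 4069 in unlabelled RNA, and from 1486 and 3885 to 2434 and 2846 in labelled RNA. Library totals took the acrylonitrile calls without s4U from 5499 and 5804 to 3873 and 7474. The labels give same-numbered libraries only a number in common. Correlations of their deviations were -0.0396 to 0.0259 in the PDP libraries and -0.0384 to 0.228 in the conversion libraries. The highest were acrylonitrile with s4U and acrylonitrile (0.228) and s4U with s4U and acrylonitrile (0.199). Whether such libraries share a source was not tested. The replicate block called 4 labelled members at 8 µM in place of 3, GADD45B being added (0.34, adjusted p = 0.044), and 7 in place of 6 for acrylonitrile with s4U. EGR1, EGR2, EGR3 and IER3 are limited by depth.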

Other observations

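Levels without PDP and in the acrylonitrile group of the conversion experiment are given side by side, without comparison, since the experiments differ in s4U and were made separately. EGR1 read 3.56 ± 0.614 FPM (SD, n = 2) in the 0 µM PDP libraries and 42.1 ± 2.06 in the acrylonitrile libraries. EGR3 read 0.441 ± 0.0452 and 3.804 ± 0.257, and NR4A1 25.8 ± 0.0351 and 53.9 ± 0.527. IER5 read 174 ± 2.33 and 202 ± 4.31.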
